A study of Mus musculus with 6 samples.

Results

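The Ebf genes encode early B-cell factors, also called Olf-1 or COE proteins. Probe sets were taken as members where the platform annotation gave exactly 1 symbol and that symbol was Ebf1, Ebf2 or Ebf3. This yielded 11 of 45037 tested probe sets, with 5 for Ebf1, 3 for Ebf2 and 3 for Ebf3, or 3 of 18193 genes with 1 symbol. Ebf2 was chosen by its higher values in the Lmx1b-null pools of these same arrays, so its values and intervals are given as a description. Its probe sets went through the same fit as all others, and their calls are not read as evidence of the rise. Ebf1 and Ebf3 entered as its paralogues.

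Messenger RNA was profiled in 3 Lmx1b-null (Lmx1b -/-) and 3 wild-type pools of the 129Sv mouse strain at E11.5, that is by embryonic day, with 1 array per pool. LMX1B is the LIM homeodomain factor that gives limb mesenchyme its dorsal identity, and the series asked which genes it controls in the hindlimb bud. A pool held cRNA from 6 hindlimb buds of 3 embryos, cut to the proximal part of about 500 µm, so each value averages embryos and mixes dorsal with ventral tissue. No other allele or treatment is given in the labels, and the kind of null allele is not stated there. Values are log2 RMA values, in which background correction, normalization between arrays and summary over a probe set's probes have been applied. On each array the median lay at 4.97 to 4.996, and a probe set with a mean below 5 over the 6 arrays is called dim here. Of the 11 Ebf probe sets, 10 were at or above that level. In bulk tissue of this kind, fewer cells of a type and less RNA per cell cannot be told apart.

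EBF proteins bind DNA as dimers through a zinc-containing domain and recognise a short palindrome. Ebf1 is best known for committing lymphoid progenitors to the B-cell fate, Ebf2 for specifying brown fat precursors and for neuron migration, and Ebf3 for neuronal development. All 3 are also known from mesenchyme and from neurons as they differentiate. The genes lie on separate chromosomes, Ebf1 on 11, Ebf2 on 14 and Ebf3 on 7.

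Sequence before the transcription start was at hand for Ebf1, at both of its listed starts, and for Ebf3. The windows are shown because the paralogues share a binding motif and can be compared for it. They are the 250 bases before each start in RefSeq's GRCm38.p6 annotation, 5′ to 3′ on the gene's strand, and capitals mark a match to the EBF palindrome CCCNNGGG.
Ebf3, chr7:137314446-137314695, minus strand: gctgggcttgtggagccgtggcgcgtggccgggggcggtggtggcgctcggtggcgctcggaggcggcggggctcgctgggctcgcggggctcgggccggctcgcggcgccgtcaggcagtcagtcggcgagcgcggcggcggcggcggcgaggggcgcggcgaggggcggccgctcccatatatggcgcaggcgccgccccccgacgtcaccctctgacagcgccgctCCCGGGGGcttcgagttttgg
Ebf1, chr11:44617850-44618099, plus strand: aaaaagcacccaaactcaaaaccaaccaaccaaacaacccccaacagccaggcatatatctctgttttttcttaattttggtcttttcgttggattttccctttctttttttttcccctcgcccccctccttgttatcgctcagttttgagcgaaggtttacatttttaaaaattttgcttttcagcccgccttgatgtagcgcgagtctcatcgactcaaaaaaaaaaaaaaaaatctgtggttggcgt
Ebf1, chr11:44619978-44620227, plus strand: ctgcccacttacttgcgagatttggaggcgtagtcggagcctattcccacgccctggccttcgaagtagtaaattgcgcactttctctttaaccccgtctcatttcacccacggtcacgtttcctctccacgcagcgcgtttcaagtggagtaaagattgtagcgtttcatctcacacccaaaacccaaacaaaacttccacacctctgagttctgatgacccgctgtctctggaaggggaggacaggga
The Ebf3 window held 1 match, starting 21 bases before the start, and the Ebf1 windows held 0. The motif reads the same on both strands, and 11.8% of 32851 windows of this length in the same annotation held it. The palindromic homeodomain core TAATTA, also the same on both strands, was found in 0 of the 3 windows and in 4.84% of all windows. The Ebf3 window was 80% G and C, and those of Ebf1 40% and 52%, against a median of 52.4% over all windows. A match in these letters is a description and not a site of binding.

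Libraries were alike in distribution, with correlations between arrays of 0.993 to 0.997. The brighter Lmx1b probe set read 4.62, 4.23 and 4.57 in Lmx1b-null pools, against 8.02, 7.58 and 8.17 in wild-type pools, which fits the labels. Limb mesenchyme markers were strong in both groups, with Prrx1 at 11.07 ± 0.02 in Lmx1b-null and 11.20 ± 0.04 in wild-type pools (SD, n = 3) and Tbx4, a hindlimb selector, at 10.20 ± 0.07 in Lmx1b-null and 10.49 ± 0.15 in wild-type pools. Wild-type pool 1 stood apart in several Ebf measures, as described below. The level of Xist, the transcript that marks an inactive X chromosome, also differed between pools, at 9.66, 9.16 and 10.79 in Lmx1b-null pools, against 4.68, 9.88 and 4.72 in wild-type pools in its brightest probe set.

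Ebf2 was higher in every Lmx1b-null pool than in any wild-type pool, in all 3 of its probe sets. The probe set with the widest separation, 1449102_at, read 7.64, 7.40 and 7.56 in Lmx1b-null pools, against 6.45, 6.58 and 6.51 in wild-type pools. It averaged 7.53 ± 0.12 in Lmx1b-null and 6.51 ± 0.07 in wild-type pools (SD, n = 3 each), a change of 1.02 with a standard error (SE) of 0.08 and a 95% interval of 0.84 to 1.21, or 2.03-fold. The lowest Lmx1b-null value exceeded the highest wild-type value by 0.83. Every change is a difference of log2 means, Lmx1b-null minus wild-type, from a linear model fitted to all probe sets with limma.

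The other Ebf2 probe sets gave nearly the same rise with more spread among wild-type pools. Probe set 1449101_at, the brightest by its mean over the 6 arrays, read 7.51, 7.36 and 7.56 in Lmx1b-null pools, against 6.43, 6.76 and 6.65 in wild-type pools, a change of 0.86 (SE 0.10) or 1.82-fold. Probe set 1418494_at read 7.47, 7.28 and 7.504 in Lmx1b-null pools, against 6.23, 6.77 and 6.56 in wild-type pools, a change of 0.90 (SE 0.13) or 1.86-fold. In both, wild-type pool 1 was the lowest and wild-type pool 2 the highest of the wild-type values, and neither reached the Lmx1b-null range. The 3 probe sets were designed from 1 transcript record, so they are not independent readings of the gene.

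At a limma adjusted p under 0.05, 2 of the 11 Ebf probe sets were called, both of Ebf2 and both higher, where the whole array had 0.0844% of probe sets called and 0.0222% called higher. The contrast chose Ebf2, so nothing is read from that count. It rested on all 6 pools: with any single pool left out, 1 Ebf probe set was called, always 1449102_at. With the pool number as a block, and with Xist as a covariate in limma, 0 were called. In those fits 5 and 3 of the 11 had an unadjusted p under 0.05, against 9.41% of all probe sets in the main fit. The 11 include the Ebf2 probe sets that the contrast chose, so nothing is read from these counts. The size of the rise moved less, with a change of 0.97 to 1.09 in 1449102_at when 1 pool was left out and 0.95 with Xist as a covariate. In 1449101_at and 1418494_at the Xist level brought it to 0.70 and 0.64. The part of the Xist level in the Ebf2 rise was not tested beyond these fits.

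**Figure D1:**
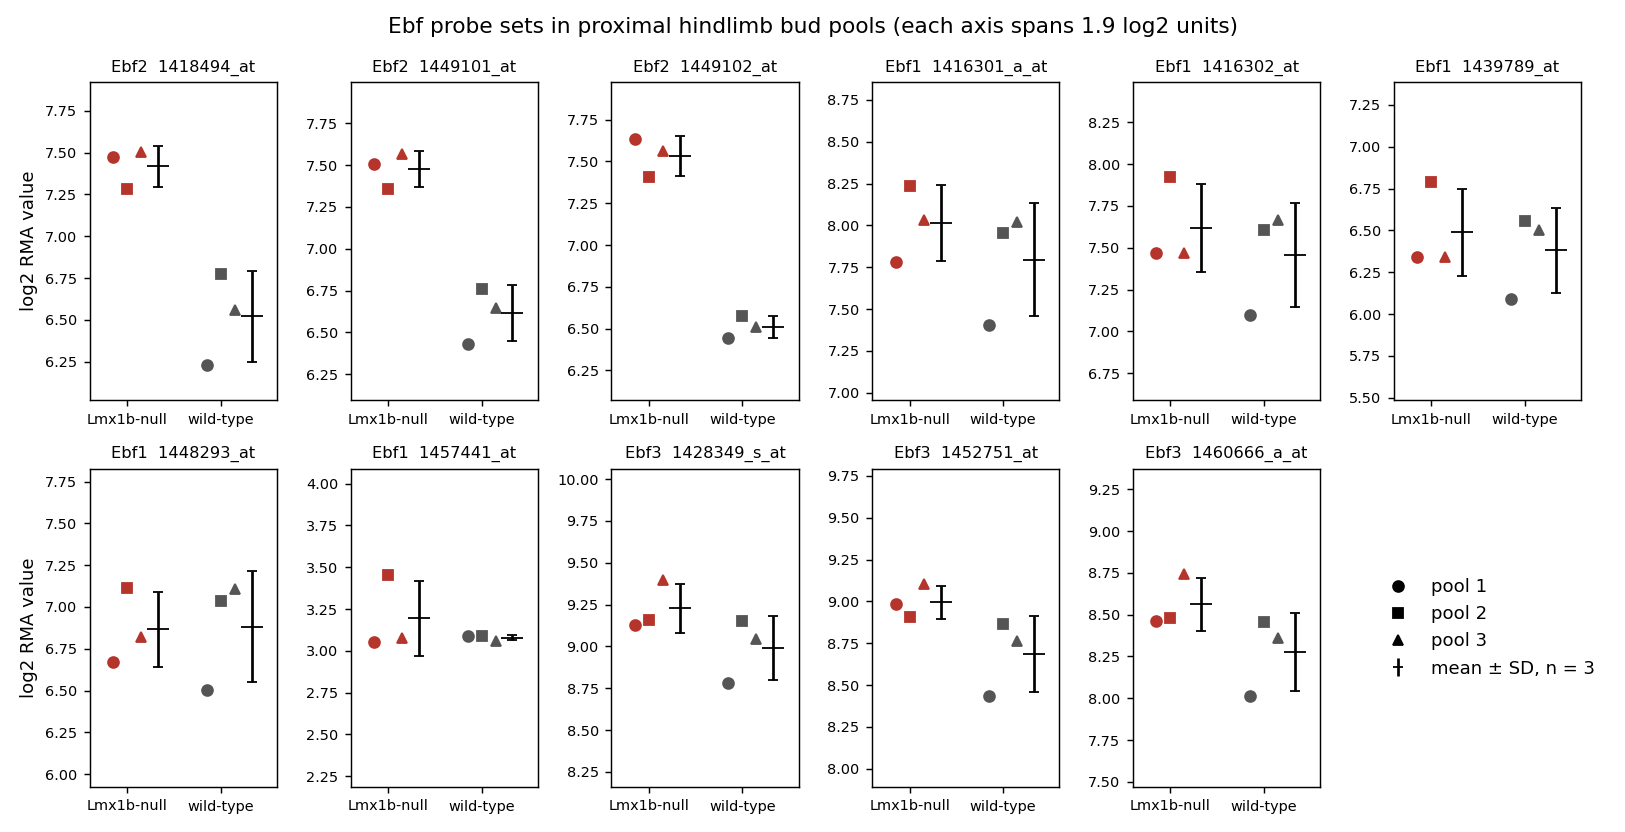
Log2 RMA value of each of the 11 Ebf probe sets in 3 Lmx1b-null pools (red) and 3 wild-type pools (grey), with symbols for pool number and bars for mean ± SD. The groups are apart in the 3 Ebf2 panels, touch or nearly touch in the Ebf3 panels and overlap in the Ebf1 panels.

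Ebf3 was slightly higher in Lmx1b-null pools in all 3 probe sets, and none passed the test. Its brightest probe set, 1428349_s_at, read 9.13, 9.16 and 9.40 in Lmx1b-null pools, against 8.78, 9.15 and 9.05 in wild-type pools, a change of 0.24 (SE 0.11, 95% interval -0.03 to 0.50; limma adjusted p = 0.566). The suffix of that probe set marks probes that may also match other transcripts, so it may not read Ebf3 alone. Probe set 1452751_at read 8.98, 8.90 and 9.10 in Lmx1b-null pools, against 8.43, 8.87 and 8.76 in wild-type pools, a change of 0.31 (SE 0.12, interval 0.04 to 0.58; adjusted p = 0.479). Probe set 1460666_a_at read 8.46, 8.48 and 8.74 in Lmx1b-null pools, against 8.02, 8.46 and 8.36 in wild-type pools, a change of 0.28 (SE 0.13, interval -0.01 to 0.58; adjusted p = 0.545).

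In 1452751_at and 1460666_a_at the groups did not overlap, but only by 0.04 and 0.01 on the log2 scale. Among the 8 probe sets of Ebf1 and Ebf3 these were the 2 with all 3 Lmx1b-null values above all wild-type values, which was so for 8.62% of all probe sets; the 3 of Ebf2, chosen by this contrast, are not counted. The Ebf3 difference leaned on wild-type pool 1, the lowest of all pools in each Ebf3 probe set. Without that pool the change was 0.13 in 1428349_s_at, 0.18 in 1452751_at and 0.15 in 1460666_a_at. With Xist as a covariate the 3 changes were 0.04, 0.11 and 0.07.

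Ebf1 overlapped between the groups in each of its 5 probe sets, and none passed. The brightest, 1416301_a_at, read 7.78, 8.23 and 8.03 in Lmx1b-null pools, against 7.41, 7.96 and 8.02 in wild-type pools, a change of 0.22 (SE 0.18, interval -0.18 to 0.63; limma adjusted p = 0.73). Without wild-type pool 1 that change was 0.03. Probe set 1416302_at read 7.47, 7.92 and 7.47 in Lmx1b-null pools, against 7.10, 7.61 and 7.67 in wild-type pools, a change of 0.16 (adjusted p = 0.814).

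Probe set 1439789_at, designed from another record, read 6.34, 6.79 and 6.34 in Lmx1b-null pools, against 6.09, 6.55 and 6.50 in wild-type pools, a change of 0.11 (adjusted p = 0.873). Probe set 1448293_at read 6.67, 7.11 and 6.82 in Lmx1b-null pools, against 6.50, 7.04 and 7.11 in wild-type pools, a change of -0.02 (adjusted p = 0.985). These values put the wild-type pools 2 and 3 above Lmx1b-null pools 1 and 3. The fifth probe set, 1457441_at, lay between 3.05 and 3.45 on all arrays, where the lower quartile of an array was 3.31 to 3.36. The upper ends of the intervals of the 4 brighter probe sets ran from 0.38 to 0.63. The changes fitted for Ebf2, 0.86 to 1.02, lay above each of these. They come from the values by which Ebf2 was chosen. Their own intervals reached down to 0.59 in 1418494_at and 0.63 in 1449101_at, so no conclusion is drawn from this comparison.

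**Figure D2:**
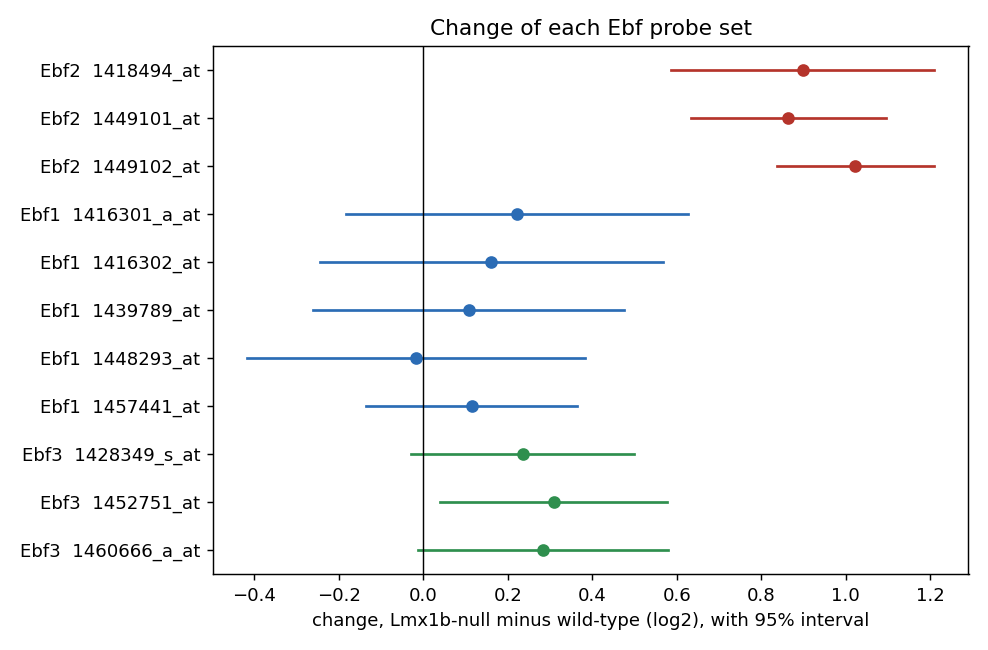
Change of each Ebf probe set, in log2 units (Lmx1b-null minus wild-type), with its 95% limma interval, for Ebf2 (red), Ebf1 (blue) and Ebf3 (green). The Ebf2 points lie from 0.86 to 1.02, those of Ebf3 from 0.24 to 0.31 and those of Ebf1 from -0.02 to 0.22.

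Set against its paralogues inside the same pool, the Ebf2 difference was higher in Lmx1b-null tissue, which the choice of Ebf2 favours. The brightest Ebf2 minus the brightest Ebf3 probe set was -1.62, -1.80 and -1.83 in Lmx1b-null pools, against -2.35, -2.39 and -2.40 in wild-type pools. Only the change in this difference can be interpreted, since the levels of different probe sets are not on 1 scale. The change was 0.63 (SE 0.07, 95% interval 0.44 to 0.82), and the 3 wild-type pools lay within 0.05 of each other. The brightest Ebf2 minus the brightest Ebf1 probe set was -0.27, -0.88 and -0.47 in Lmx1b-null pools, against -0.98, -1.19 and -1.37 in wild-type pools. Here the spread was wider and the change of 0.64 (SE 0.21) had an interval of 0.05 to 1.23.

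Pairings of the other probe sets are given as a description too, since each holds an Ebf2 probe set. They reuse the same probe sets and pools and are not independent. How often such differences separate the groups for other probe sets was not computed, so nothing is read from the counts. In 12 of 12 pairings of an Ebf2 probe set with an Ebf1 probe set that was not dim, and in 9 of 9 with an Ebf3 probe set, each Lmx1b-null difference lay above each wild-type difference. The change ranged from 0.64 to 1.04 against Ebf1 and from 0.55 to 0.79 against Ebf3. Between the paralogues themselves, the brightest Ebf3 minus the brightest Ebf1 probe set changed by 0.01 (SE 0.18), with an interval of -0.48 to 0.50. With 3 pools against 3, an exact two-sided permutation test of a single value cannot go below 0.1, and none was run on differences that the choice of Ebf2 had fixed.

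**Figure D3:**
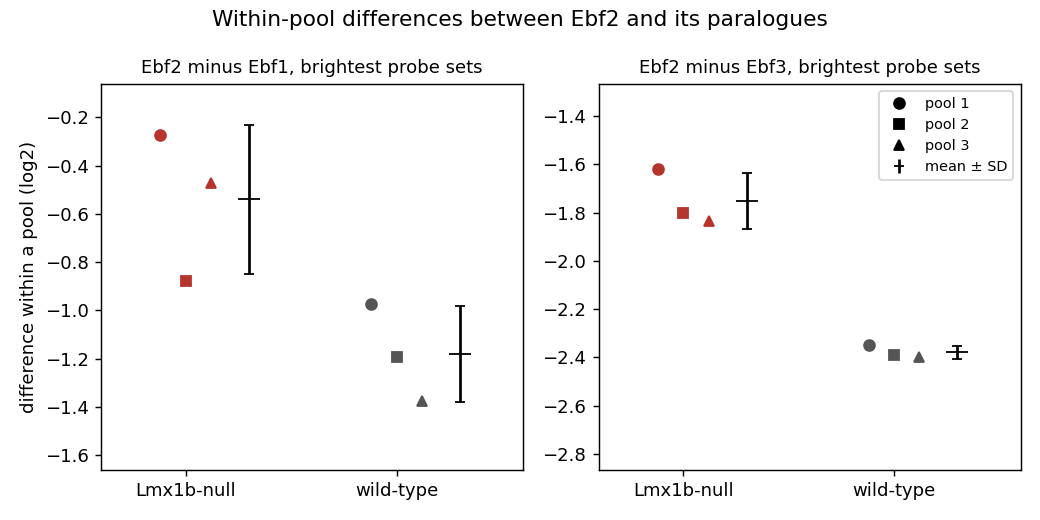
Within-pool difference in log2 RMA value between the brightest Ebf2 probe set and the brightest probe set of Ebf1 (left) or Ebf3 (right), with bars for mean ± SD over 3 pools. The Lmx1b-null pools (red) lie above the wild-type pools (grey) in both panels, with a smaller gap for Ebf1.

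The paralogues differed in how they varied from pool to pool. Each probe set was centred on its mean over the 6 pools, and the centred values were averaged over a gene's probe sets that were not dim. Ebf2 stood at 0.53, 0.33 and 0.53 in Lmx1b-null pools, against -0.64, -0.31 and -0.44 in wild-type pools. Ebf1 stood at -0.12, 0.33 and -0.02 in Lmx1b-null pools, against -0.41, 0.10 and 0.14 in wild-type pools. Ebf3 stood at 0.07, 0.06 and 0.29 in Lmx1b-null pools, against -0.38, 0.03 and -0.07 in wild-type pools.

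Wild-type pool 1 was thus the lowest pool for all 3 genes, in 10 of the 11 probe sets. The highest pool differed: Lmx1b-null pool 2 in all 5 Ebf1 probe sets, Lmx1b-null pool 3 in all 3 Ebf3 probe sets, and Lmx1b-null pool 1 or 3 for Ebf2. Lmx1b-null pool 2 had the highest Ebf1 and the lowest Lmx1b-null Ebf2. Wild-type pool 1 was also the lowest of the 6 pools in the mean level of 8 of the 12 gene lists described below, those of partners, osteoblasts, olfactory neurons, neurons, Schwann cells, connective tissue, somites and muscle. The limb muscle list stood in it at 6.35, against 6.73 and 6.86 in wild-type pools 3 and 2 and 6.87 to 7.04 in Lmx1b-null pools, and the somite and sclerotome list at 6.23, against 6.43 and 6.47 in the other wild-type pools and 6.51 to 6.63 in Lmx1b-null pools. Their part in the Ebf values was not tested. Without wild-type pool 1, the changes of the 3 Ebf2 probe sets were 0.99, 0.77 and 0.75.

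**Figure D4:**
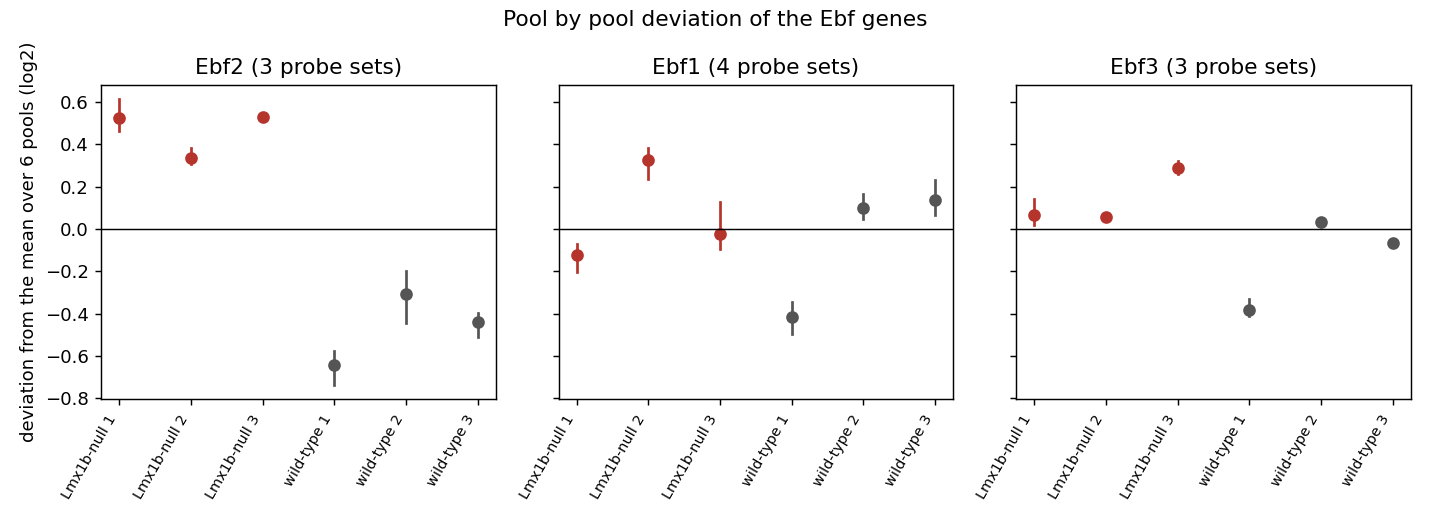
Deviation of each pool from the mean over the 6 pools on the log2 scale, averaged over the probe sets of a gene that were not dim (points), with the lowest and highest probe set (lines). The Lmx1b-null pools (red) lie above the wild-type pools (grey) in Ebf2, which was chosen for this. In Ebf3 they do so narrowly, with a lowest Lmx1b-null mean of 0.06 and a highest wild-type mean of 0.03. In Ebf1 the groups overlap. Wild-type pool 1 is the lowest in each gene.

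Genes that act with EBF factors held no call. Of 10 partner and cofactor genes, 0 passed at an adjusted p under 0.05, and 0 had an unadjusted p under 0.05, where 0.0934% of 18193 genes, each at its brightest probe set, were called in limma and 8.92% had an unadjusted p under 0.05. The list's median change was 0.02, equal to that of all genes. Zfp423, a zinc finger protein that binds EBF factors, read 9.08, 9.08 and 9.004 in Lmx1b-null pools, against 8.87, 8.73 and 9.03 in wild-type pools, a change of 0.17 (limma adjusted p = 0.576), or 0.32 with Xist as a covariate (0.723). Its relative Zfp521, an antagonist of EBF1, averaged 9.33 ± 0.05 in Lmx1b-null and 9.38 ± 0.07 in wild-type pools (SD, n = 3). Prdm16, which works with Ebf2 in brown fat, read 10.09, 10.12 and 10.09 in Lmx1b-null pools, against 9.90, 9.97 and 10.02 in wild-type pools, a change of 0.14 (limma adjusted p = 0.547). It was the only one of the 10 with every Lmx1b-null value above every wild-type value, which held for 8.62% of all probe sets. The remaining family member Ebf4 had a change of -0.10 in its only probe set (adjusted p = 0.792).

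Lists tied to the known roles of EBF proteins in other tissues held no call either, where 0.0934% of 18193 genes were called in limma. An unadjusted p under 0.05 was found in 8.92% of those genes, so counts of 0 in lists this short say little. Among 11 adipocyte-lineage genes 0 passed, with 0 at an unadjusted p under 0.05 and a median change of 0.09. The mature fat genes Ucp1, Adipoq and Fabp4 lay near the bottom of the range, at 3.19, 2.28 and 3.52 in Lmx1b-null pools and 3.09, 2.36 and 3.42 in wild-type pools. Among 9 early B-cell genes 0 passed, with 0 at an unadjusted p under 0.05, a median change of -0.01 and 7 of the 9 dim, among them Cd79a at 4.04 and 4.20 and Cd79b at 3.98 and 4.08 in Lmx1b-null and wild-type pools. Among 5 olfactory neuron genes 0 passed, also with 0 at an unadjusted p under 0.05, and the median change was -0.01.

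Of 7 measured osteoblast genes and osteoclast regulators 0 passed, with a median change of 0.06. At an unadjusted p under 0.05 there was 1, where 8.92% of all genes were. That one was Dlx5, a homeobox gene of bone precursors and the apical ridge, at 7.23, 7.32 and 7.02 in Lmx1b-null pools, against 5.79, 6.39 and 6.64 in wild-type pools, which differ by 0.92 (SE 0.20; limma adjusted p = 0.213). The groups did not overlap, and wild-type pool 1 was again the lowest. Tnfrsf11b, the osteoprotegerin gene that Ebf2 regulates in osteoblasts, was dim, at 3.70 ± 0.04 in Lmx1b-null and 3.64 ± 0.15 in wild-type pools.

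Other cell types that the dissected tissue could hold were read through marker lists. Of 15 neuronal genes 0 passed, and 3 had an unadjusted p under 0.05, where 8.92% of all genes did. Among the 15, 10 were dim, including Elavl3, Snap25 and the proneural genes Neurog2 and Neurod1. The mean log2 level of the list was 4.65 to 4.70 in Lmx1b-null pools and 4.65 to 4.85 in wild-type pools. The 3 genes moved in different directions: Nefl, which was dim, was at 0.96, whereas Dcx, a neuronal microtubule protein, was at -1.87 and Gap43, a growth cone protein, at -0.57 (limma adjusted p = 0.212, 0.0691 and 0.0648). Dcx and Gap43 passed with an intensity trend (0.0303 and 0.0244) or with array weights (0.0484 and 0.0369).

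Of 6 measured Schwann cell and neural crest genes 0 passed and 1 had an unadjusted p under 0.05, where 8.92% of all genes did. That was Ngfr, the low-affinity neurotrophin receptor gene, with a change of 0.47 (adjusted p = 0.327). The list's mean level was 5.78 to 5.96 in Lmx1b-null and 5.47 to 5.89 in wild-type pools. Of 8 endothelial genes 0 passed, 2 had an unadjusted p under 0.05 and all 8 changes were below 0. In 4 of the genes every Lmx1b-null value was under every wild-type value. The share of all probe sets in that order was not computed, so nothing is read from the 4. Tek, an endothelial receptor kinase gene, read 5.95, 5.97 and 6.02 in Lmx1b-null pools, against 6.83, 6.57 and 6.47 in wild-type pools, a change of -0.65 (SE 0.10; limma adjusted p = 0.089, or 0.0495 with an intensity trend). The list had mean levels of 6.54 to 6.59 in Lmx1b-null and 6.68 to 6.97 in wild-type pools. The part of these cell types in the Ebf2 rise was not tested.

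No muscle or somite gene passed. Of 11 limb muscle genes 0 passed, and 3 had an unadjusted p under 0.05, where 8.92% of all genes did. Of the 11 changes 9 were above 0, with a median of 0.36. In 3 genes every Lmx1b-null value lay above every wild-type value, which held for 8.62% of all probe sets. Msc, a repressor in muscle precursors, read 8.35, 8.05 and 8.27 in Lmx1b-null pools, against 7.14, 7.72 and 7.45 in wild-type pools, which differ by 0.78 (SE 0.15; limma adjusted p = 0.155). Of 9 somite and sclerotome genes 0 passed, 3 had an unadjusted p under 0.05, and 6 changes were above 0 and 3 below, with a median of 0.08. Pax9, a paired-box gene of sclerotome and limb mesenchyme, read 6.96, 7.32 and 6.95 in Lmx1b-null pools, against 5.68, 6.46 and 6.01 in wild-type pools, which differ by 1.02 (SE 0.19; adjusted p = 0.155). Pax1, its close relative in sclerotome, had a change of 0.01 (-0.0025 with centred arrays). Meox1 and Meox2, also at an unadjusted p under 0.05, had changes of 0.50 and 0.25 (limma adjusted p = 0.231 and 0.418). In both, as in Pax9, every Lmx1b-null value lay above every wild-type value. The part of muscle or somite tissue in the Ebf2 rise was not tested.

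Among 17 regulators and markers of limb connective tissue 0 passed, but 7, or 41.2%, had an unadjusted p under 0.05, where 8.92% of all genes did, and the median change was 0.02. Osr2, a transcription factor of connective tissue and joints, was lower in each Lmx1b-null pool, at 7.36, 7.45 and 7.18, against 7.70, 7.91 and 7.85 in wild-type pools, a change of -0.49 (limma adjusted p = 0.156). Mkx, a tendon regulator, was at -0.48, Tbx3 at 0.26 and Tbx4 at -0.29 (adjusted p = 0.288, 0.364 and 0.402). The rest of the 7 had larger p and were all higher in Lmx1b-null pools, with changes of 0.21 to 0.27. Across the 12 lists, 1 of 113 measured genes passed, and that was Lmx1b itself, while 21, or 18.6%, had an unadjusted p under 0.05. The lists were chosen with earlier results of these data known, so nothing is read from that share.

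Ebf2 lies on chromosome 14. Without its own probe sets, 4 of 1213 named probe sets on that chromosome were called, or 0.33%, against 23 of 33525 on the other chromosomes, or 0.0686%. They were single probe sets of Rpgrip1, Dzip1, Mapk8 and Cnmd, with Mapk8 at 0.75 and the other changes at -4.62, -3.35 and -1.76. With 1 pool left out Rpgrip1 and Dzip1 passed each time (limma adjusted p at most 0.045 for Dzip1), whereas adjusted p ran from 0.0334 to 0.0912 for Mapk8, which passed only without wild-type pool 1 or 3, and from 0.0147 to 0.183 for Cnmd, which passed only without wild-type pool 1. In gene order, Cnmd was 92 and Dzip1 147 measured genes from Ebf2 on one side, and Rpgrip1 194 and Mapk8 302 on the other. Whether these calls and the Ebf2 rise share a chromosomal cause was not tested.

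Among the 10 measured genes nearest to Ebf2 on each side, 0 of 20 passed in limma. An unadjusted p under 0.05 was found in 4, or 20%, where 8.92% of all genes had one. The changes of the 20 ran from -0.12 to 0.96 with a median of 0.09, and 12 of the 20 were dim. Besides Nefl, the 4 were Adamdec1, Adam28 and Ptk2b, all dim, with changes of 0.30, 0.19 and 0.18 (limma adjusted p = 0.359, 0.499 and 0.497). The direct neighbours, Ppp2r2a, a phosphatase subunit gene, and Cdca2, a mitotic chromatin regulator, were bright and had changes of 0.00 and -0.12 (-0.01 and -0.14 with each array centred on its median). The largest change was that of Nefl, the neurofilament light chain gene, 4 genes away and one of the 12 dim neighbours. It read 5.47, 5.26 and 5.62 in Lmx1b-null pools, against 3.97, 4.80 and 4.69 in wild-type pools, a change of 0.96 (SE 0.21; adjusted p = 0.212). Its other probe set read 5.001, 4.69 and 4.94 in Lmx1b-null pools, against 4.08, 4.54 and 4.48 in wild-type pools, a change of 0.51 (adjusted p = 0.315). Nefm, the neurofilament gene beside it, had a change of 0.14 (adjusted p = 0.864), or -0.08 without wild-type pool 1. Whether chromosomal position has a part in the Ebf2 rise was not tested.

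**Figure D5:**
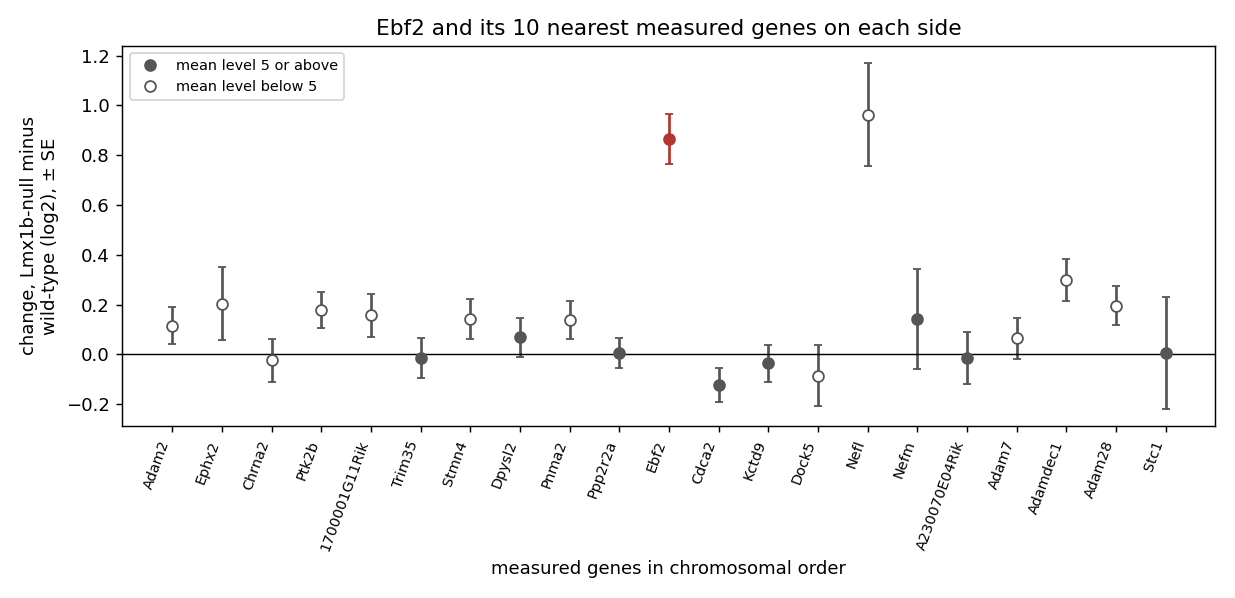
Change with SE for the brightest probe set of Ebf2 (red) and of the 10 nearest measured genes on each side in chromosomal order (grey), in log2 units of Lmx1b-null minus wild-type, with open symbols for dim genes. Nefl is at 0.96, and the other neighbours lie between -0.12 and 0.30.

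The genes whose centred values over the 6 pools were nearest to those of the brightest Ebf2 probe set were sought among 19214 probe sets with 1 symbol and a mean of at least 5. Likeness was the mean absolute difference in log2 units, which had a median of 0.43 over those probe sets. The other Ebf2 probe sets lay at 0.05 and 0.09, and the brightest Ebf1 and Ebf3 probe sets at 0.33 and 0.31. The 8 nearest genes were Pisd-ps3 (0.08), Supt16 (0.08), Msc (0.08), Mapk8 (0.11), Igfbp5 (0.13), Kansl1l (0.14), Bnc1 (0.14) and Fgf18 (0.14). All 8 were higher in Lmx1b-null pools, since likeness to Ebf2 selects for this, with changes of 0.66 to 0.78. Of the 8, 5 shared with Ebf2 the lowest value in wild-type pool 1 and the next in wild-type pool 3, namely Pisd-ps3, Supt16, Msc, Igfbp5 and Bnc1. Igfbp5, an insulin-like growth factor binding protein gene, read 10.90, 10.62 and 10.95 in Lmx1b-null pools, against 9.59, 10.41 and 10.18 in wild-type pools. With 6 pools, such likeness says nothing of shared function or control.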

How the data were processed

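For every probe set the authors deposited 1 log2 value on each array, computed by RMA per the submitters' processing notes, which name no version, and log2 was inferred from the values, which ran from 1.77 to 13.72. Of 45101 probe sets, 64 controls were left out and 45037 tested. Names came from the platform annotation, which gave 1 symbol for 34945 probe sets, several for 932 and none for 9160. Chromosomes and gene order came from RefSeq GRCm38.p6, joined by gene identifier.

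The comparison used lmFit and eBayes of limma 3.58.1 (R 4.3.3), two-sided, with Benjamini-Hochberg adjustment over all 45037 probe sets and a threshold of 0.05. The fit was run on simulated data with independent noise on each array. Such data cannot show how it fares with differences shared by many genes of a pool. The 3 pools of a group were taken as replicates; the labels name separate pools of embryos. The median SE was 0.0843, and the number of arrays limits the precision. RMA compresses differences near the bottom of its range, and its normalization would hide a shift of most transcripts.

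Same-numbered pools deviated from their group means with correlations of -0.239, -0.088 and -0.168, so the numbers pair nothing. Intervals of differences between probe sets used the pooled spread of the within-pool differences.

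The members and the 12 gene lists were chosen with earlier results of these data known. The lists held 122 genes, of which 113 were measured, each at its brightest probe set; the others were not analysed here. Named genes were all Ebf probe sets, up to 4 members per list with the smallest p or defining the list, the 10 nearest genes on each side of Ebf2, the 8 genes most like it, and Lmx1b. Naming the called genes of chromosome 14 and Xist was chosen after their values were seen. Alternatives were the variance model, array weights, normalization, a filter on dim probe sets, removal of probe sets that may cross-hybridise, the threshold, the pool number as a block, the Xist level and leaving out each pool. Apart from Meox1, Meox2, Adamdec1, Adam28 and Ptk2b, they were run for the genes the text names, a set narrowed after the values were seen.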

Additional observations from a re-analysis of the deposited data

How the results depend on the processing

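Against 38 probe sets called over the whole array and 2 of the Ebf genes, an intensity trend called 94 and an adjusted p under 0.1 gave 99, each with 3 Ebf probe sets, all of Ebf2, array weights called 69, and probe sets with a mean of at least 5 gave 20. Leaving out 1 pool gave 13 to 38 over the array and 1 Ebf probe set each time. With the pool number as a replicate block 14 were called over the array, and with the Xist level 11. Of these 12 and 8 were among the 38. In either limma fit 0 Ebf probe sets were called. Of the 11, 5 and 3 had an unadjusted p under 0.05, counts that include the Ebf2 probe sets chosen by the contrast. The labels tie no numbered pool of 1 group to a pool of the other. Each number occurs once in each group, so the block can alter the error of a change but not its size. Nor can the variance model or the filter on dim probe sets alter the size. The Xist level lowered the change of Ebf2 1449101_at from 0.86 to 0.70 and of 1418494_at from 0.90 to 0.64; in the other alternatives these and 1449102_at moved by less than the spread between pools. The Ebf2 change minus the Ebf1 change ran from 0.51 to 0.81 and minus the Ebf3 change from 0.56 to 0.67 over the alternatives run. Removing probe sets that may cross-hybridise takes out the brightest Ebf3 probe set, so that alternative is missing for Ebf3. Against the next brightest, 1452751_at, the difference was 0.55 with all pools. No Ebf1 or Ebf3 probe set passed under any alternative run (lowest adjusted p 0.417). Of listed genes 1 was called, but 4 with an intensity trend and 3 with array weights; 0 neighbours of Ebf2 were called in any of these limma fits.

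Near 0 the sign of Ebf1 was not fixed. Its probe set 1448293_at turned to 0.012 after repeated quantile normalization and, with 1 pool left out, ran from -0.207 to 0.0962, above 0 without Lmx1b-null pool 1, Lmx1b-null pool 3, wild-type pool 2 or wild-type pool 3. With 1 pool left out, 1416302_at ran from -0.018 to 0.265, turning without wild-type pool 1, and 1439789_at from -0.042 to 0.194, turning without that pool or without Lmx1b-null pool 2. The dim probe set 1457441_at ran from -0.0143 to 0.184, turning without Lmx1b-null pool 2. Other changes near 0 that turned were those of Nefm (-0.252 with Xist as a covariate; -0.0777 to 0.379 with 1 pool left out), Pax1 (-0.0125 with Xist as a covariate and -0.0025 with centred arrays; -0.136 to 0.192 with 1 pool left out) and Ppp2r2a (-0.0119 with centred arrays; -0.0181 to 0.0177 with 1 pool left out). So did those of Elavl3 (-0.0222 with Xist as a covariate; -0.0756 to 0.0832 with 1 pool left out), Neurog2 (-0.0192 with Xist as a covariate), Fabp4 (-0.0256 to 0.217 with 1 pool left out) and Tnfrsf11b (-0.0241 to 0.113). The cause was not tested. Of the 38 called probe sets, 13 were dim.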
